A study of Mus musculus with 9 samples.

Results

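The genes described here are the machinery of MHC class II antigen presentation in monocytes of a mouse model of neuromyelitis optica (NMO). They were chosen by gene symbol as the class II chains H2-Aa, H2-Ab1 and H2-Eb1, the invariant chain Cd74, the peptide-loading genes H2-DMa, H2-DMb1 and H2-DMb2, the transactivator Ciita and the costimulatory ligands Cd86 and Cd80. All 10 symbols were found among the 23238 symbols of the count files, and 9 of the 10 were among the 10107 genes that passed the expression filter and were tested. H2-DMb2 did not pass the filter.

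The study measured gene expression by QuantSeq 3′ RNA sequencing, which reads the 3′ ends of transcripts, in monocytes sorted from blood and brain. The mice were wild-type C57BL/6N females, 12 weeks old according to the methods of the study. NMO mice received NMO-IgG, the patient-derived autoantibody against aquaporin 4, together with human complement by injection into the striatum on 1 side of the brain, and Normal mice were not treated. Blood_Normal, Blood_NMO and Brain_NMO each had 3 libraries, sampled at day 1, and every library was a pool of 5 mice. The sort kept CD45+ CD11b+ P2ry12- Ly6C+ Ly6G- cells in all groups. No group of brain monocytes from Normal mice was analysed, so brain against blood and infiltration against circulation cannot be told apart. Per the methods, brain cells were released by enzyme digestion and a Percoll spin, while blood cells were isolated on a density gradient. This difference in cell preparation cannot be told apart from them either.

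MHC class II molecules present peptides from endocytosed proteins to CD4 T cells. Their alpha and beta chains are assembled with the invariant chain, which is then digested by lysosomal proteases until H2-DM exchanges the remaining fragment for an antigenic peptide. In monocytes this machinery is low at rest and inducible by interferon-gamma through the transactivator CIITA, and CD80 and CD86 supply the costimulatory signal that T cells need alongside the peptide.

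Total counts lay between 7584649 and 10419647 per library. The number of genes detected ranged from 4567 in Blood_NMO replicate 3 to 11556, and the common dispersion of edgeR's fit was 2.87, so the libraries of a group differed far beyond counting error. Genes that reached 50 CPM in the remaining libraries of the same group were at 3 counts or fewer in 22.3% of cases in Blood_NMO replicate 3 and in 8.26% in Brain_NMO replicate 2, against at most 1.94% in the other libraries. Among the 10 genes described here, 4 had 3 counts or fewer in Blood_NMO replicate 3. Many values are also given without these 2 libraries, and a value given only once may still depend on them. The monocyte markers (10 genes, Ly6c2, Ccr2 and Lyz2 among them) summed to 4573 to 6006 CPM in Blood_Normal, 3720 to 6284 CPM in Blood_NMO and 4787 to 8489 CPM in Brain_NMO. Ly6c2, which encodes the Ly6C antigen of the sort, was measured at 437, 59.5 and 199 CPM in Brain_NMO and at 462 to 933 CPM in the blood libraries, so it was lowest in Brain_NMO replicate 2.

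The promoters of 6 of the 10 genes were read from the RefSeq table of GRCm38.p6, the assembly that mm10 denotes, as 250 bases before and 50 bases after the start of transcription. H2-Ab1, Cd74, Ciita and Cd86 are named only. In the same annotation the class II genes lie together on chromosome 17, with H2-Aa at chr17:34282744-34287823, H2-Ab1 at chr17:34263227-34269418 and H2-Eb1 at chr17:34305867-34316674, while Ciita (chr16:10480014-10531064), Cd86 (chr16:36568956-36666158) and Cd80 (chr16:38457430-38495958) lie on chromosome 16. The 4 promoters below are those of a class II alpha chain, a class II beta chain and the paired H2-DM beta genes, and they are shown because genes of this family are known to share a conserved upstream module of X and Y boxes through which CIITA acts. Capitals mark GATTGG, the core of the Y box, or its reverse complement, and GATGATG, letters that were chosen after the promoters were seen. The windows are chr17:34287774-34288073 on the minus strand for H2-Aa, chr17:34305617-34305916 on the plus strand for H2-Eb1, chr17:34152941-34153240 on the plus strand for H2-DMb1 and chr17:34144999-34145298 on the plus strand for H2-DMb2, each written 5′ to 3′ on the strand of the gene.
H2-Aa: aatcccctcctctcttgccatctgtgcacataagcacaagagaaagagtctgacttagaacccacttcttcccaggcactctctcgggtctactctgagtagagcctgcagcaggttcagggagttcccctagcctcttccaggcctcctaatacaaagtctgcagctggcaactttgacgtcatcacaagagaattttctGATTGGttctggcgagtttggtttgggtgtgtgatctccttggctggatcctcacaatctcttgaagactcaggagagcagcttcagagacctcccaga
H2-Eb1: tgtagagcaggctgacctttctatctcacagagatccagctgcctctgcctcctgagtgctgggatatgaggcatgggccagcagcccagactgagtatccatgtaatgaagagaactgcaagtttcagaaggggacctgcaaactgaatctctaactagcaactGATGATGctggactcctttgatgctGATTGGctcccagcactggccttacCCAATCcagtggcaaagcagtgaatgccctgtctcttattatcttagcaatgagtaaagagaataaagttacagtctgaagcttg
H2-DMb1: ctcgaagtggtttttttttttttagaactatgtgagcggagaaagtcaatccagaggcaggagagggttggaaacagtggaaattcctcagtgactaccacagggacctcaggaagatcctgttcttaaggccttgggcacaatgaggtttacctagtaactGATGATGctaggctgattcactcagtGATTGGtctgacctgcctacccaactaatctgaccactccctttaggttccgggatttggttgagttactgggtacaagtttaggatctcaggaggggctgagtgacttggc
H2-DMb2: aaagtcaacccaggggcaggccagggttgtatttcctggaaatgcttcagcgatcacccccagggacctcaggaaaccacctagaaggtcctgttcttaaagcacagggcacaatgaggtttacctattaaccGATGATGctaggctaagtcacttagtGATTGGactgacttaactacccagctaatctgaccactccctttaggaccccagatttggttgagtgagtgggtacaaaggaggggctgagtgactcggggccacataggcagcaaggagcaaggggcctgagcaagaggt

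GATTGG on either strand was found in all 4 of these promoters, in 1 of the 2 promoters listed for H2-DMa and not in the window of Cd80. It was present in 16.1% of the 32851 promoters of the table. GATGATG stood upstream of GATTGG in H2-Eb1, with 18 bases between them, and in H2-DMb1 and H2-DMb2, with 19 bases between them. GATGATG was present in 3.48% of all promoters and both sets of letters in 0.457%. AGNNACAG, the letters set for the X box core, were present in 25.9% of all promoters. Among the 6 genes whose promoters were read they were found only in H2-Eb1. They matched there at bases 244 to 251 on the minus strand and 282 to 289 on the plus strand, downstream of both GATTGG matches. The promoters of H2-DMb1 and H2-DMb2 were identical at 208 of 247 aligned bases (84.2%). A match of letters is a description and not a binding site, and the lack of a match does not show that a box is absent.

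H2-Aa and H2-Ab1 encode the alpha and beta chains of I-A, the class II molecule that C57BL/6 mice display. Both were highest in Brain_NMO, intermediate in Blood_Normal and lowest in Blood_NMO. H2-Aa was measured at 862, 822 and 579 CPM in the Blood_Normal libraries, at 725, 568 and 46.9 CPM in Blood_NMO and at 1113, 2374 and 954 CPM in Brain_NMO, in the order of replicates 1, 2 and 3. Every Brain_NMO library was above every blood library, with Brain_NMO replicate 2 far above the other libraries and Blood_NMO replicate 3 far below them. The means were 754 ± 153 CPM (SD, n = 3) in Blood_Normal, 447 ± 355 CPM in Blood_NMO and 1480 ± 778 CPM in Brain_NMO. Between Brain_NMO and Blood_NMO the fitted difference was 3.31-fold, a log2 fold change of 1.73 with a standard error of 0.68 (edgeR quasi-likelihood test, unadjusted p = 0.0238, Benjamini-Hochberg adjusted p = 0.802). In bulk libraries such a difference in level can come from more cells of a type or from more RNA per cell, and these cannot be told apart.

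H2-Ab1 gave 895, 546 and 723 CPM in Blood_Normal, 634.5, 563 and 61.6 CPM in Blood_NMO and 987, 2297 and 947 CPM in Brain_NMO. The same libraries stood out as for H2-Aa, and Brain_NMO again did not overlap either blood group. Its log2 fold change between Brain_NMO and Blood_NMO was 1.75 with a standard error of 0.64 (edgeR, unadjusted p = 0.0160, adjusted p = 0.802). The count of H2-Ab1 relative to that of H2-Aa in the same library stayed between 0.664 and 1.31 while H2-Aa itself spanned 50.6-fold over the 9 libraries.

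H2-Eb1 encodes the beta chain of I-E, whose alpha chain gene is defective in C57BL/6 mice. It was measured at 727, 314 and 259 CPM in Blood_Normal, at 457, 321 and 75.5 CPM in Blood_NMO and at 626, 1767 and 489 CPM in Brain_NMO. Brain_NMO did not overlap Blood_NMO but did overlap Blood_Normal, since Blood_Normal replicate 1 was above Brain_NMO replicates 1 and 3. The log2 fold change between Brain_NMO and Blood_NMO was 1.76 with a standard error of 0.66 (edgeR, unadjusted p = 0.0183, adjusted p = 0.802).

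Cd74 encodes the invariant chain, which occupies the peptide groove until the class II molecule reaches the endosome. It was measured at 905, 512 and 324 CPM in Blood_Normal, at 728, 539.7 and 66.1 CPM in Blood_NMO and at 1070, 1449 and 882 CPM in Brain_NMO. Brain_NMO lay above all of Blood_NMO, and Blood_Normal replicate 1 lay within the range of Brain_NMO. The log2 fold change between Brain_NMO and Blood_NMO was 1.35 with a standard error of 0.64 (edgeR, unadjusted p = 0.0531, adjusted p = 0.802), which missed the unadjusted threshold. This fold change was 0.85 without Blood_NMO replicate 3, 1.15 without Brain_NMO replicate 2 and 0.64 without both.

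**Figure D1:**
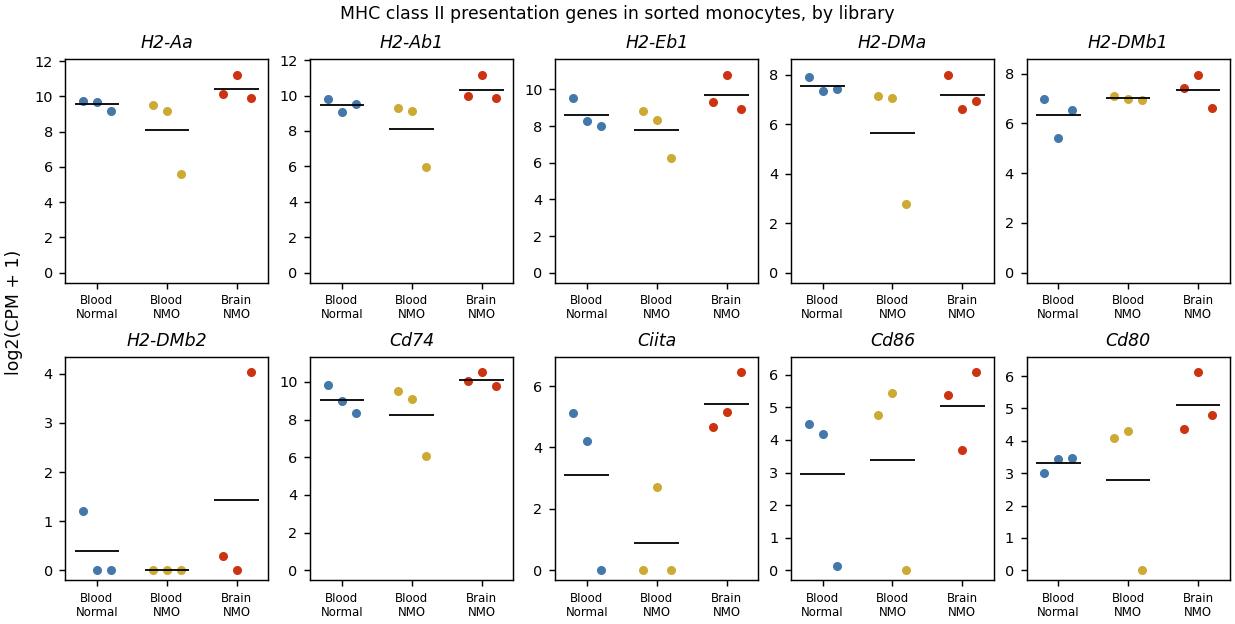
Levels of the 10 MHC class II presentation genes as log2(CPM + 1), with 1 panel per gene and 1 point per library in the order of replicates 1, 2 and 3 within each group. Lines are group means of the plotted values (n = 3), axis ranges differ between panels, and the lowest Blood_NMO point of the class II chains, Cd74 and H2-DMa is replicate 3.

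The difference of the class II chains between Brain_NMO and Blood_NMO depended on single libraries. Without Brain_NMO replicate 2 the log2 fold changes were 1.22 for H2-Aa, 1.22 for H2-Ab1 and 0.99 for H2-Eb1, with unadjusted p-values of 0.118, 0.0939 and 0.159 in edgeR's test, so that no member passed the unadjusted threshold. Without Blood_NMO replicate 3 they were 1.21, 1.25 and 1.32, and all 3 chains stayed past it. Without both libraries, a setting chosen after seeing the data, they were 0.69, 0.71 and 0.53, and 0 of the 9 genes tested passed. The 3 chains and Cd74 were still above every remaining Blood_NMO library in the remaining Brain_NMO libraries.

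**Figure D2:**
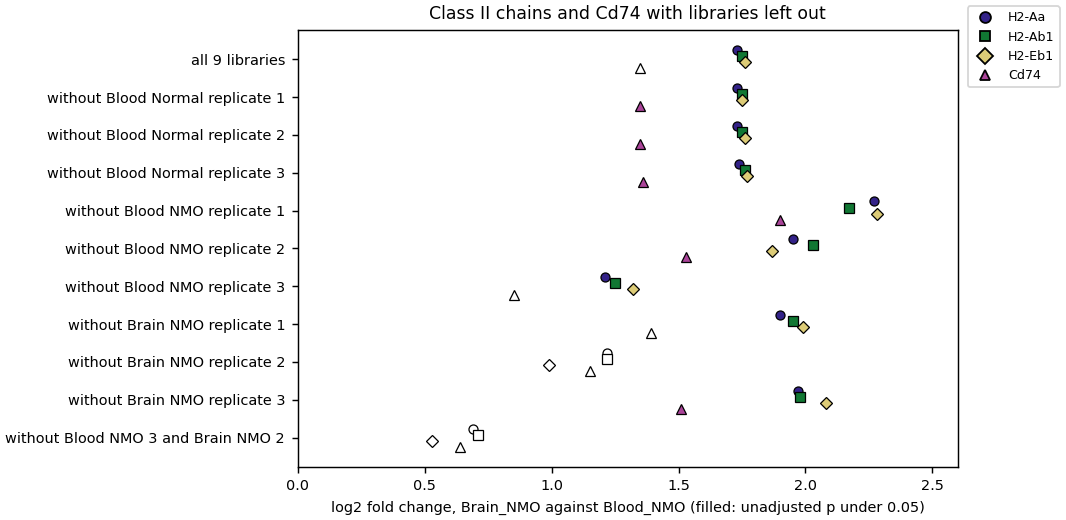
Fitted log2 fold change (edgeR) of Brain_NMO against Blood_NMO for H2-Aa, H2-Ab1, H2-Eb1 and Cd74 with all 9 libraries, with each library left out in turn and with Blood_NMO replicate 3 and Brain_NMO replicate 2 both left out. Filled symbols have an unadjusted p under 0.05, and for H2-Aa the values ran from 0.69 to 2.27.

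H2-DMa and H2-DMb1 encode the alpha and beta chains of H2-DM, the editor that removes the invariant chain fragment and selects peptides. H2-DMa was measured at 239.5, 162.5 and 168 CPM in Blood_Normal, at 141, 131 and 5.82 CPM in Blood_NMO and at 253, 97.8 and 122 CPM in Brain_NMO. Brain_NMO replicate 2, which had the highest class II chains of all libraries, had the lowest H2-DMa of its group, and every Blood_NMO library was below every Blood_Normal library. Its log2 fold change was 0.77 ± 0.87 (standard error) between Brain_NMO and Blood_NMO and -1.04 ± 0.88 between Blood_NMO and Blood_Normal (edgeR, unadjusted p = 0.393 and 0.256). The first value was 0.23 without Blood_NMO replicate 3, 0.25 without Brain_NMO replicate 1 and 0.48 without Blood_NMO replicate 3 and Brain_NMO replicate 2, and the second was -0.48 without Blood_NMO replicate 3.

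H2-DMb1 was measured at 125, 41.9 and 92.8 CPM in Blood_Normal, at 135, 126 and 120.4 CPM in Blood_NMO and at 170.5, 246 and 98.4 CPM in Brain_NMO. Unlike the other chains it was not low in Blood_NMO replicate 3, and the 3 groups overlapped. The log2 fold change between Brain_NMO and Blood_NMO was 0.43 ± 0.66 (edgeR, unadjusted p = 0.523), and 0.10 without Brain_NMO replicate 2, the library in which H2-DMb1 was highest.

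H2-DMb2, the other beta chain gene of H2-DM, had 3 counts or fewer in all but 2 libraries. It had 9, 0 and 0 counts in Blood_Normal, 0 counts in each Blood_NMO library and 2, 0 and 154 counts in Brain_NMO, so that a single library held nearly all of its reads. A count of 3, the limit that a count of 0 allows, corresponded to between 0.273 and 0.432 CPM, and such limits cover counting error only. Multiply aligned reads were included in the counts, and of the 75-base windows of the transcripts 254 were shared between H2-DMb1 and H2-DMb2, which is 19.1% of those of H2-DMb1 and 14.6% of those of H2-DMb2. The values of this pair are therefore uncertain.

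The counts of single libraries show how closely each gene kept to H2-Aa. Relative to H2-Aa, the count of Cd74 stayed between 0.560 and 1.41 and that of H2-Eb1 between 0.382 and 1.61. The count of H2-DMa ranged from 0.0412 in Brain_NMO replicate 2 to 0.290 in Blood_Normal replicate 3, and that of H2-DMb1 from 0.0509 to 2.57, the latter in Blood_NMO replicate 3. Without that library the highest value of H2-DMb1 was 0.222, and without Brain_NMO replicate 2 the lowest value of H2-DMa was 0.124. As a description over the 9 libraries, which share library preparation and depth between genes, Pearson's r of log2(CPM + 1) with H2-Aa was 0.99 for H2-Ab1, 0.97 for Cd74, 0.93 for H2-Eb1, 0.85 for H2-DMa and 0.20 for H2-DMb1. Without Blood_NMO replicate 3 (8 libraries) these were 0.92, 0.85, 0.93, -0.30 and 0.56, so the high value for H2-DMa and the low value for H2-DMb1 both rested on that library. Over the same 8 libraries r of H2-DMb1 was 0.72 with H2-Ab1, 0.74 with H2-Eb1 and 0.68 with Cd74.

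**Figure D3:**
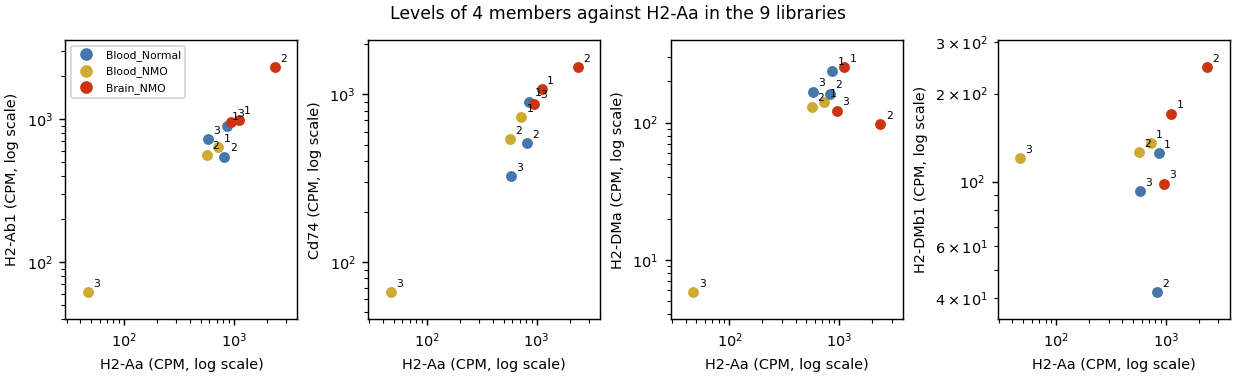
CPM of H2-Ab1, Cd74, H2-DMa and H2-DMb1 against CPM of H2-Aa on log axes in the 9 libraries, coloured by group and numbered by replicate. H2-Ab1 and Cd74 rise along with H2-Aa, whereas H2-DMa is at 97.8 CPM in Brain_NMO replicate 2, where H2-Aa is at 2374 CPM, and H2-DMb1 is at 120.4 CPM in Blood_NMO replicate 3, where H2-Aa is at 46.9 CPM.

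Ciita encodes the class II transactivator, the coactivator on which transcription of the class II genes depends. It was measured at 33.8, 17.4 and 0 CPM in Blood_Normal, at 0, 5.55 and 0 CPM in Blood_NMO and at 24.3, 34.9 and 86.0 CPM in Brain_NMO. All Brain_NMO libraries were above all Blood_NMO libraries, while those of Blood_Normal overlapped both. The log2 fold change between Brain_NMO and Blood_NMO was 4.70 with a standard error of 2.85 (edgeR, unadjusted p = 0.122, adjusted p = 0.937). This fold rested on Blood_NMO replicate 2, the only library of its group with reads of Ciita (51 counts), without which Blood_NMO was at 0 and the unadjusted p was 0.0150 (edgeR, adjusted p = 1). With DESeq2 it was 4.88 with an unadjusted p of 0.0395, and with limma-voom 6.60 with an unadjusted p of 0.00666, and neither passed after adjustment (adjusted p = 0.402 and 0.220). Over the libraries the order of Ciita was not that of the class II chains, because Ciita was highest in Brain_NMO replicate 3 and the chains in Brain_NMO replicate 2.

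Cd80 and Cd86 encode the ligands of CD28 and CTLA-4 on T cells. Cd80 was measured at 7.05, 9.83 and 10.1 CPM in Blood_Normal, at 15.8, 18.7 and 0 CPM in Blood_NMO and at 19.6, 68.1 and 26.9 CPM in Brain_NMO. Brain_NMO was above both blood groups in every library, by a narrow margin in replicate 1. The log2 fold change of Cd80 was 1.73 ± 2.20 (standard error) against Blood_NMO and 2.08 ± 2.23 against Blood_Normal (edgeR, unadjusted p = 0.445 and 0.365). Against Blood_NMO it was 1.03 without Brain_NMO replicate 2, 1.15 without Blood_NMO replicate 3 and 0.44 without both, and against Blood_Normal it was 1.38 without Brain_NMO replicate 2.

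Cd86 was measured at 21.6, 17.3 and 0.102 CPM in Blood_Normal, at 26.1, 42.3 and 0 CPM in Blood_NMO and at 40.9, 11.9 and 66.2 CPM in Brain_NMO. The groups overlapped throughout, and in Brain_NMO replicate 2 Cd86 was lowest of its group where Cd80 was highest. The log2 fold change between Brain_NMO and Blood_NMO was 0.80 ± 2.19 (edgeR, unadjusted p = 0.721), and ranged from 0.22 without Brain_NMO replicate 3 to 1.62 without Blood_NMO replicate 2 when single libraries were left out.

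The comparison of Brain_NMO with Blood_NMO asks what differs between infiltrated and circulating monocytes of the same model. After adjustment 0 of the 9 genes tested passed, against 0.247% of all genes tested, and DESeq2 and limma-voom also gave 0. The study's own threshold takes an unadjusted p below 0.05 together with a 1.2-fold difference, and by it 3 of 9 were higher (H2-Aa, H2-Ab1 and H2-Eb1), against 1.48% of all genes tested, and 0 of 9 were lower, against 3.84%. DESeq2 passed 1 of the genes (Ciita) at that threshold and limma-voom 4 (H2-Aa, H2-Ab1, Cd74 and Ciita). The share over all genes was not determined for these 2 methods. For 6 of 9 (the 3 class II chains, Cd74, Ciita and Cd80) every Brain_NMO library was above every Blood_NMO library, against 6.30% of all genes tested. All 9 had a fitted log2 fold change above 0, against 51.4% of all genes tested, and the median was 1.73, against 0.05 over all genes. Without Blood_NMO replicate 3 and Brain_NMO replicate 2 the median was 0.64, against -0.12 over all genes, and the same 6 of 9 genes did not overlap, against 16.6% of all genes.

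The comparison of Blood_NMO with Blood_Normal asks whether circulating monocytes differ after the injection. With edgeR 0 of the 9 genes passed after adjustment, against 0% of all genes tested, and DESeq2 and limma-voom gave 0 both after adjustment and at the unadjusted threshold. With edgeR 0 of 9 were higher at the unadjusted threshold, against 0.465% of all genes, and 0 of 9 lower, against 0.247%. The log2 fold changes were -0.76 ± 0.67 (standard error) for H2-Aa, -0.78 ± 0.62 for H2-Ab1 and -0.61 ± 0.64 for H2-Eb1. These values followed 1 library, and without Blood_NMO replicate 3 they were -0.22, -0.27 and -0.15. Cd74 was at -0.38 ± 0.63 with that library and at 0.13 ± 0.41 without it, and at 0.09 ± 0.65 without Blood_Normal replicate 1. H2-DMa was the only gene of 9 with every Blood_NMO library below every Blood_Normal library, against 4.45% of all genes tested, and it remained so without Blood_NMO replicate 3, against 5.97%. Without that library 3 of 9 (H2-DMb1, Cd86 and Cd80) had every Blood_NMO library above every Blood_Normal library, against 11.6% of all genes, where 0 of 9 did with it. A fitted log2 fold change above 0 was found for 3 of 9 (H2-DMb1, Cd86 and Cd80), against 42.4% of all genes.

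The comparison of Brain_NMO with Blood_Normal shares its Brain_NMO libraries with the first comparison and is not independent of it. With edgeR 0 of 9 genes passed after adjustment, against 0.247% of all genes tested, and DESeq2 and limma-voom gave 0 as well. At the unadjusted threshold 0 of 9 were higher, against 1.75% of all genes, and 0 of 9 lower, against 4.07%, while DESeq2 passed 0 and limma-voom passed H2-Ab1 and Cd74. The log2 fold changes were 0.97 ± 0.67 (standard error) for H2-Aa, 0.97 ± 0.63 for H2-Ab1, 1.15 ± 0.65 for H2-Eb1 and 0.97 ± 0.63 for Cd74. Every Brain_NMO library was above every Blood_Normal library for 3 of 9 (H2-Aa, H2-Ab1 and Cd80), against 6.07% of all genes, and 8 of 9 had a log2 fold change above 0, against 46.3%. With Blood_NMO replicate 3 left out of the fit, which shares its spread over all libraries, the class II chains and Cd74 passed the unadjusted threshold with unadjusted p-values between 0.0158 and 0.0410 in edgeR's test. Without Brain_NMO replicate 2 the values fell to 0.47 for H2-Aa, 0.44 for H2-Ab1 and 0.38 for H2-Eb1.

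**Figure D4:**
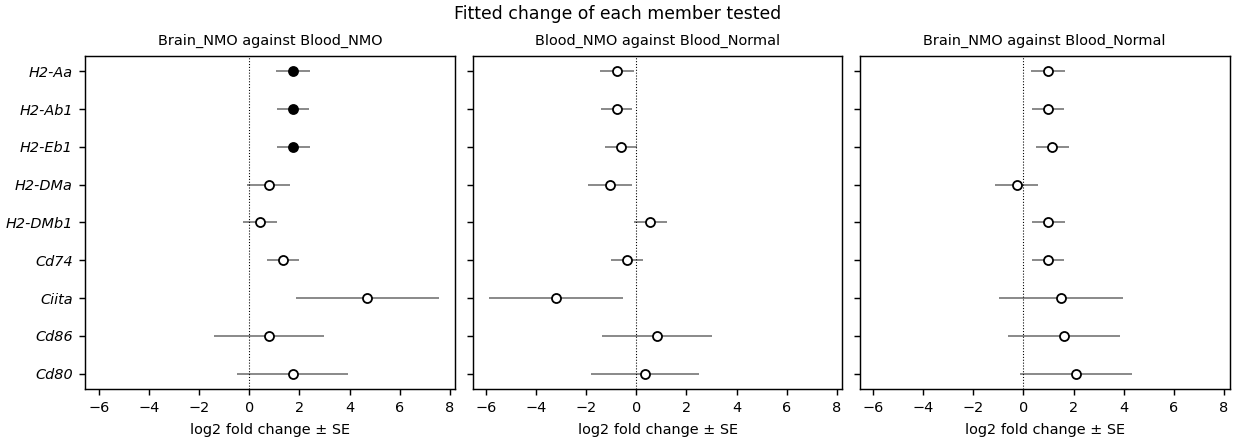
Fitted log2 fold change with its standard error (edgeR) of the 9 genes tested in the 3 comparisons, with filled points for an unadjusted p under 0.05 and the dotted line at 0. The 3 filled points are H2-Aa, H2-Ab1 and H2-Eb1 in Brain_NMO against Blood_NMO, and the bars of Ciita, Cd86 and Cd80 are the widest.

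Genes that prepare class II ligands were examined as a list of 15, of which 14 were tested. Between Brain_NMO and Blood_NMO 5 of 14 were higher at the unadjusted threshold, against 1.48% of all genes tested, 0 were lower, against 3.84%, and 0 passed after adjustment with edgeR. The median log2 fold change of the list was 0.94, against 0.05 over all genes. It was 0.76 without Blood_NMO replicate 3, 0.87 without Brain_NMO replicate 2 and 0.54 without both. The medians over all genes were then -0.16, 0.06 and -0.12. Ctss, the cathepsin that completes the digestion of the invariant chain, was measured at 2818, 2594 and 2355 CPM in Brain_NMO and at 1115, 1714 and 929 CPM in Blood_NMO, a log2 fold change of 1.05. Ctsd, a lysosomal aspartic protease, was measured at 1336, 1108 and 1056 CPM in Brain_NMO, at 363, 364 and 181 CPM in Blood_NMO and at 379.6, 318 and 291 CPM in Blood_Normal. Brain_NMO lay far above both blood groups, which overlapped, with a log2 fold change of 1.95 against Blood_NMO (edgeR, adjusted p = 0.0525, and 0.0466 without Blood_NMO replicate 3). Unlike the class II chains, neither gene stood out in Brain_NMO replicate 2.

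The other genes of this list past the unadjusted threshold were Ctsb, a lysosomal cysteine protease, Lgmn, the asparaginyl endopeptidase, and Ifi30, the lysosomal thiol reductase GILT, with log2 fold changes of 2.18, 3.54 and 1.12. Without Blood_NMO replicate 2 those of Ctsb and Lgmn were 2.99 and 5.17, and without Blood_NMO replicate 3 they were 1.65 and 2.97. The microglia markers were also higher in Brain_NMO, at a sum of 180.4 to 572.5 CPM against 0 to 71.2 CPM in the blood libraries, and their part in the values of these lysosomal genes was not tested. All 5 stayed past it without Brain_NMO replicate 2, without Blood_NMO replicate 3 and without both, while Lgmn did not without Blood_NMO replicate 1 or Brain_NMO replicate 3. Against Blood_Normal 4 of 14 were higher (Ctsl, Ctsd, Lgmn and Ifi30), against 1.75% of all genes tested, a count that was 7 without Blood_NMO replicate 3 and 2 (Ctsd and Ifi30) without Blood_Normal replicate 1 or Brain_NMO replicate 3. Between the blood groups 0 of 14 passed in edgeR's test, while Ctss and Ctsb were lower in Blood_NMO without Blood_NMO replicate 2, Ctss was lower without Blood_Normal replicate 1 and March8 was higher without Blood_Normal replicate 2. The genes of H2-DO, the inhibitor of H2-DM, were low except for H2-Oa in Brain_NMO replicate 2. H2-Oa was measured at 0, 108 and 0 CPM in Brain_NMO and at 7.70, 12.7 and 0 CPM in Blood_NMO. H2-Ob was at 0 in all Brain_NMO libraries and at 10.9, 21.6 and 0 CPM in Blood_NMO. H2-Eb2 was not tested.

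Transcription factors of the class II promoters and the interferon-gamma pathway were examined as a list of 15, all tested. Between Brain_NMO and Blood_NMO 3 of 15 were lower at the unadjusted threshold, against 3.84% of all genes tested, and 0 were higher, against 1.48%. The median log2 fold change of the list was -0.54, against 0.05 over all genes. Irf8, a transcription factor of monocyte and dendritic cell development, was measured at 265, 137 and 192 CPM in Brain_NMO, at 1279, 1431 and 1877 CPM in Blood_NMO and at 1642, 1290 and 1557 CPM in Blood_Normal. It fell in Brain_NMO with a log2 fold change of -2.95 against Blood_NMO and -2.92 against Blood_Normal (edgeR, adjusted p = 0.00183 and 0.00205). Ifngr1, a chain of the interferon-gamma receptor, had a log2 fold change of -1.41 and Jak1, a kinase of that receptor, of -1.28, with adjusted p-values of 0.209 and 0.316 in edgeR's test. The T and NK cell markers were also lower in Brain_NMO, at a sum of 33.0 to 239 CPM against 1587 to 2458 CPM in the blood libraries, and their part in the values of the regulators was not tested. The same 3 genes were lower against Blood_Normal, and Irf8 kept an adjusted p of 0.0104 without Blood_NMO replicate 3 and Brain_NMO replicate 2.

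Components of the complex that recruits CIITA were low and uneven. Rfx5 was measured at 0, 76.4 and 0 CPM in Brain_NMO and at 27.9, 0 and 0 CPM in Blood_NMO. Rfxank was measured at 13.9, 0 and 0 CPM in Brain_NMO and at 9.52, 33.1 and 14.2 CPM in Blood_NMO. No gene of the list other than Irf8 passed after adjustment in edgeR's test. Between the blood groups 0 of 15 passed the unadjusted threshold in edgeR's test.

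**Figure D5:**
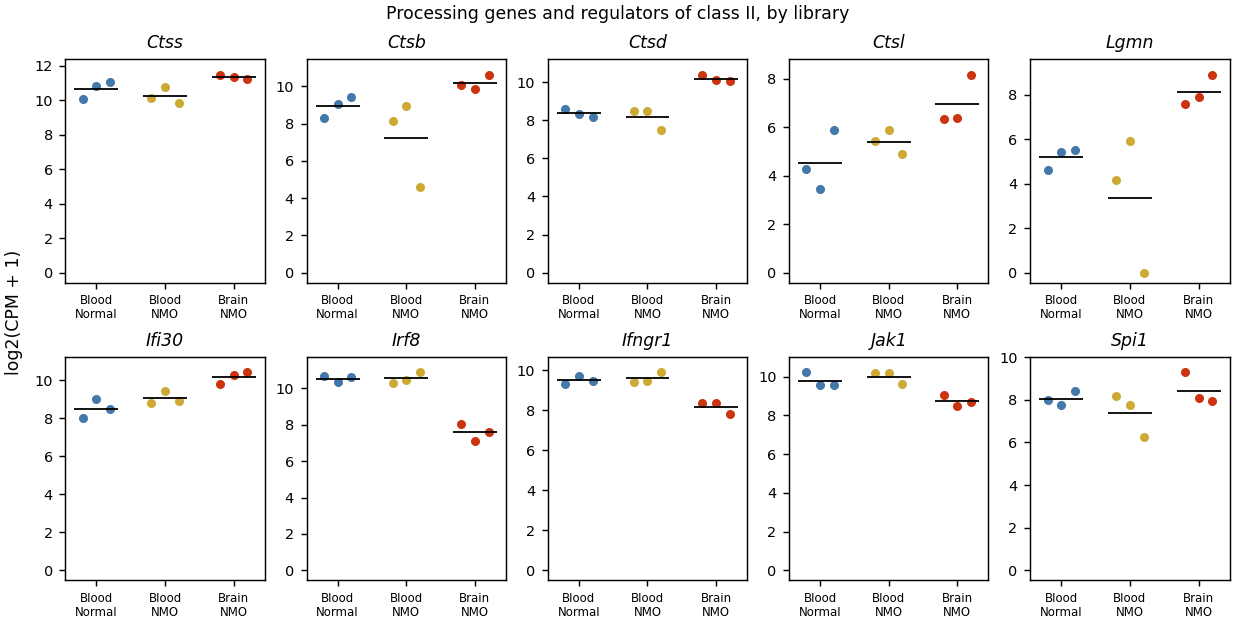
Levels of 6 processing genes (Ctss, Ctsb, Ctsd, Ctsl, Lgmn and Ifi30) and 4 regulators (Irf8, Ifngr1, Jak1 and Spi1) as log2(CPM + 1), with 1 point per library in the order of replicates 1, 2 and 3 and lines for group means (n = 3). The 3 Brain_NMO libraries of Irf8, at 137 to 265 CPM, lie below all blood libraries, and those of Ctsd, at 1056 to 1336 CPM, lie above them.

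Further costimulatory and inhibitory ligands were examined as a list of 9, of which 6 were tested. None of the 6 passed the unadjusted threshold in any comparison in edgeR's test. The median log2 fold change between Brain_NMO and Blood_NMO was 0.23, against 0.05 over all genes. It was -0.2 without Blood_NMO replicate 3, -0.01 without Brain_NMO replicate 2 and -0.45 without both. Against Blood_Normal the median was -0.81 for Blood_NMO (-0.22 without Blood_NMO replicate 3) and -0.8 for Brain_NMO, against -0.16 and -0.12 over all genes. Cd83, which protects class II from degradation in activated cells, was measured at 20.1, 97.0 and 143 CPM in Brain_NMO and at 56.7, 70.6 and 0 CPM in Blood_NMO. Cd40, the receptor for T cell help, was measured at 37.8, 0 and 11.0 CPM in Brain_NMO and at 12.5, 10.9 and 0 CPM in Blood_NMO. The groups overlapped for both genes.

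Markers of other cells that carry class II were set beside these values. The dendritic cell markers (10 genes) summed to 235, 268 and 255 CPM in Blood_Normal, to 273, 232 and 23.2 CPM in Blood_NMO and to 228, 660.5 and 398 CPM in Brain_NMO. Their sum was thus highest in Brain_NMO replicate 2 and lowest in Blood_NMO replicate 3, as were the class II chains. In Brain_NMO replicate 2 most of it came from Cd209a at 301 CPM, Itgax at 185.5 CPM and Kmo at 106.5 CPM, with Clec9a at 40.1 CPM and Zbtb46 at 27.4 CPM, the highest Zbtb46 of the 9 libraries. In the same library Flt3 and Xcr1 were near 0 and Dpp4, Batf3 and Ccr7 were at 0, the last 2 of them in all Brain_NMO libraries. The part of dendritic cells in the class II values was not tested.

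The B cell markers (10 genes) summed to between 7.19 and 212 CPM in Blood_Normal, 32.9 and 155 CPM in Blood_NMO and 10.6 and 94.8 CPM in Brain_NMO. Cd79a was at 0 in all Brain_NMO libraries, while Cd79b was at 37.8 CPM and Bank1 at 57.1 CPM in Brain_NMO replicate 2, and Ebf1 was at 45.3 CPM and Blk at 16.9 CPM in Brain_NMO replicate 3. Pax5 was at 0 in all 9 libraries. The microglia markers (8 genes) summed to between 24.1 and 71.2 CPM in Blood_Normal, 0 and 49.1 CPM in Blood_NMO and 180.4 and 572.5 CPM in Brain_NMO, and Fcrls and Olfml3 were detected in every Brain_NMO library although the sort was P2ry12-. The sum was highest in Brain_NMO replicate 2. The border-associated macrophage markers (6 genes) summed to 108 to 428 CPM in Blood_Normal, 126 to 562 CPM in Blood_NMO and 70.1 to 232 CPM in Brain_NMO. Of the 5 tested, 4 had a log2 fold change above 0 between Brain_NMO and Blood_NMO, against 51.4% of all genes. The median of the 5 was 2.87, against 0.05, and Pf4 was lower at the unadjusted threshold, against 3.84% of all genes. Against Blood_Normal it was also 4 of 5, against 46.3%, with a median of 1.78, against -0.12. There Pf4 and Ms4a7 passed, 1 higher, against 1.75% of all genes, and 1 lower, against 4.07%. The T and NK cell markers (9 genes) summed to 1587 to 2046 CPM in Blood_Normal, 1860 to 2458 CPM in Blood_NMO and 33.0 to 239 CPM in Brain_NMO. The part of these cells in the class II values was not tested.

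The genes whose pattern over the 9 libraries was most like the mean log2(CPM + 1) of H2-Aa, H2-Ab1, H2-Eb1 and Cd74 were sought among 5593 genes with a mean of at least 20 CPM. The 10 most alike were Atic, Hnrnpu, Rdx, Bad, Mkln1, Drg1, Fam160b1, Luzp1, Nolc1 and Hnrnpd, with Pearson's r between 0.967 and 0.982. All of them except Hnrnpu and Hnrnpd were at 0 CPM in Blood_NMO replicate 3. Without that library (8 libraries) Atic, at an r of 0.938, and Nolc1, at 0.899, were still among the 10 most alike, while the other genes had r between 0.851 and 0.898 and ranked 11 to 42.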

How the data were processed

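The authors sorted monocytes, prepared QuantSeq 3′ libraries and deposited, for each of the 9 libraries, a table of raw read counts per gene symbol. The submitters' processing notes name Bowtie2, bedtools and mm10, with versions not given in the sources used here. Per the methods, unique and multiple alignments were counted, and TMM and CPM normalization with edgeR came after the deposited counts. Groups came from the sample labels, and the age of the mice from the methods.

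Each table lists 23282 entries, and 35 symbols occur repeatedly, for which only the largest entry by total count was used. Counts were scaled to CPM with TMM factors in R 4.3.3. The test was edgeR 4.0.16 (filterByExpr, glmQLFit and glmQLFTest, group only, all 9 libraries in 1 fit), with Benjamini-Hochberg adjustment over the 10107 genes tested. Its code was run on simulated data. Recovery of changed genes was required there only at a dispersion far below the 2.87 of these data, so that check does not speak to power here. A standard error is the absolute log2 fold change divided by the square root of F. Every library is a pool of 5 mice, and the methods call the replicates within a group independent. Whether Blood_NMO and Brain_NMO libraries came from the same mice is not stated in the sources used here. The p-values measure the spread between the pools within groups. Depth limits a count of 0 to 3 counts per library.

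The alternatives were RLE factors, library sizes alone, no filter, at least 10 counts in 3 libraries, only the libraries of the comparison, a block for replicate number, omission of each library, DESeq2 1.42.0, limma-voom (limma 3.58.1) with quality weights, summed entries and no Rn45s. The lists with libraries left out, the overlap counts with libraries left out, the pair of libraries left out together, the likeness without 1 library and the letters GATGATG were chosen after seeing the data. Genes named are all members, list genes past the unadjusted threshold or described by role, and the 10 genes most like the class II chains. The members and lists were chosen with earlier results of these data known. Deviations of same-numbered libraries from their group means correlated at -0.01 to 0.12, and those of differently numbered libraries at -0.1 to 0.03. Between Blood_NMO and Blood_Normal the same-numbered values (0.12, 0.02 and 0.07) were all above the differently numbered ones (at most 0.01). The main fit did not take the numbers to pair the samples, and whether same-numbered libraries share mice or a batch was not tested. The identity of the H2-DM and CD80 and CD86 proteins was not analysed here.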

Additional observations from a re-analysis of the deposited data

How the results depend on the processing

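The 9 genes tested kept a log2 fold change above 0 between Brain_NMO and Blood_NMO under all 20 alternatives, with 0.69 to 2.27 for H2-Aa, 0.71 to 2.17 for H2-Ab1, 0.53 to 2.28 for H2-Eb1 and 0.64 to 1.90 for Cd74. The common dispersion over all genes was 2.87 with 3 libraries per group. For single genes, the parts of library spread and counting depth in the precision were not determined. After adjustment the count of genes passed was 0 in every comparison and setting, except that without a filter on low counts H2-Aa, H2-Ab1 and H2-Eb1 passed between Brain_NMO and Blood_NMO (3 genes, edgeR adjusted p = 0.000437, 0.00055 and 0.0141). The cause was not tested. The share of all genes passing a p threshold was determined for the main fit alone. Counts of genes passed under the alternatives therefore have no such share beside them and cannot be read as particular to these genes. Limma-voom moved the median log2 fold change of all genes between Brain_NMO and Blood_NMO from 0.05 to -0.65.

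At the unadjusted threshold the count between Brain_NMO and Blood_NMO, 3 in the report, was 1 with DESeq2 and 0 without both Blood_NMO replicate 3 and Brain_NMO replicate 2, and ranged from 0 (without Brain_NMO replicate 2) to 5 (without Blood_NMO replicate 2) with single libraries left out. Between Blood_NMO and Blood_Normal it was 0, 2 without a filter, and 0 to 1 with single libraries left out, the 1 being without Blood_NMO replicate 2. Between Brain_NMO and Blood_Normal it was 0 in the report, 2 with library sizes alone, 4 without a filter, 3 with only the groups compared, 2 with limma-voom, and 0 to 4 with single libraries left out (4 without Blood_NMO replicate 3, 1 without Blood_Normal replicate 1 and 1 without Brain_NMO replicate 3). With the replicate number as a block the count was 2 (H2-Eb1 and Cd74) between Brain_NMO and Blood_Normal and 4 between Brain_NMO and Blood_NMO. Whether same-numbered libraries share more than a number was not tested. The block changed no call after adjustment.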
